A study of Homo sapiens with 12 samples.

Results

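Epithelial surface glycoproteins are the proteins by which an epithelial cell presents sugars and adhesion sites to its surroundings. The set described here was chosen by gene symbol, with earlier results of these data known. It holds 8 genes of the 13555 gene symbols listed in the study: EPCAM, MUC1, BCAM, CEACAM6, PSCA, LY6D, LYPD3 and CD24. Of these, 7 were measured, and CD24 is not analysed here. The study measured RNA in MCF-12A cells, in 6 libraries labelled control and 6 labelled TGFbeta1. MCF-12A is an established human cell line, grown from breast epithelium that was not a tumour, and every library comes from it. TGFbeta1 is a secreted cytokine that induces epithelial-mesenchymal transition in many epithelial cells. The sources used here give no dose, duration or vehicle. Nothing says that replicates came from separate cultures, so every p-value here reflects only how these libraries spread, which may be technical. The libraries form 2 tables, the first set with replicates 1 to 3 of either group and the second set with replicates 4 to 6. The tables appear to be normalised separately, which the labels do not state. Values are FPKM, fragments per length of transcript and per mapped fragments of the library, summed over the protein-coding transcripts of a gene, and the depth behind them is unknown.

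The proteins of these genes sit on the outer face of the plasma membrane in different ways. EPCAM, MUC1 and BCAM cross the membrane with a single segment. EPCAM is a homophilic adhesion molecule of simple and glandular epithelia, MUC1 is a heavily O-glycosylated mucin of the apical surface, and BCAM is an immunoglobulin-like receptor for laminins that hold the alpha-5 chain. CEACAM6, PSCA, LY6D and LYPD3 hang on a glycosylphosphatidylinositol (GPI) lipid anchor. CEACAM6 belongs to the carcinoembryonic antigen family of the immunoglobulin superfamily, while PSCA, LY6D and LYPD3 share the three-finger fold of the LY6/uPAR family. LY6D and LYPD3 are known from stratified epithelium. Many of these genes are markers of epithelial identity, and loss of EPCAM is a usual readout of epithelial-mesenchymal transition.

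The libraries of both sets had epithelial RNA. Keratin and E-cadherin genes of a list of 8 epithelial markers summed to 3700 to 4483 FPKM in the controls of the first set, against 2961 to 3300 with TGFbeta1. In the second set 7 of the 8 (all but KRT19) were listed, with sums of 2160 to 2409 and 2227 to 2548 FPKM. All 7 basal and myoepithelial markers were listed in the first set, summing to 2098 to 2840 FPKM, against 1652 to 1714 with TGFbeta1. That sum was mostly KRT5, KRT14 and KRT17. KRT5 and KRT17 were lower without overlap, while TP63 (means of 22.3 and 27.4 FPKM) and ACTA2 (14.6 and 19.6) were higher without overlap. Of 9 luminal markers 6 were listed (305 to 399, against 225 to 449.9). KRT18 (means of 261 and 156 FPKM, no overlap) and KRT8 (71.5 and 144, overlapping, with 258 in TGFbeta1 3) made up most. The other luminal markers had control means of at most 2.99 FPKM. Endothelial and erythroid markers summed to at most 1.62 FPKM in any library, with PECAM1 not listed. Of 6 leukocyte markers, CD68 and CD14 were the listed ones. Their sum was 25.1 to 26.1 FPKM in the first set's controls and 15.1 to 19.1 with TGFbeta1. In the second set it was 19.5 to 19.7 and 15.1 to 23.6 FPKM. There the mean of CD14 went from 5.35 to 8.69 FPKM without overlap of the groups, while CD68 overlapped (14.3 and 11.1). PTPRC was not listed in either set. Of 8 stromal markers 3 were listed in the first set (COL1A1, DCN and FAP) and summed to 8.26 to 8.59 FPKM in the controls and 55.0 to 57.7 with TGFbeta1. In the second set 4 were listed, at 36.1 to 39.8 FPKM in the controls and 17.5 to 21.2 with TGFbeta1. There DCN, FAP and PDGFRA were lower with TGFbeta1, while COL1A1 was higher (means of 0.439 and 0.713 FPKM), each without overlap of the groups. The part of these marker genes in the results below was not tested. SMAD7, an inhibitory SMAD that TGFbeta signalling induces, was at 1.22 ± 0.189 FPKM in controls and 4.35 ± 0.588 with TGFbeta1 in the first set, and at 1.12 ± 0.0893 and 0.909 ± 0.170 in the second (SD, n = 3). Its log2 change passed the limma test in the first set (adjusted p = 0.00199) and not in the second (adjusted p = 0.653).

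Promoter sequence is shown for 2 genes that fell in the first set, MUC1 and CEACAM6, chosen after their values and windows were seen. The DNA before their starts differs in a motif read by repressors of epithelial genes. Any part of this motif in the falls was not tested. The E-box letters CAGGTG, or CACCTG on the other strand, are bound by the SNAI and ZEB repressors. These letters were searched on both strands in the 250 bases before each gene start in RefSeq (GRCh38.p14), and matches are in capitals below, 5′ to 3′ on the strand of the gene. The MUC1 window is chr1:155192916-155193165 on the minus strand, before the upstream of 2 RefSeq starts that lie 6 bases apart, and the CEACAM6 window is chr19:41755280-41755529 (plus strand).
MUC1: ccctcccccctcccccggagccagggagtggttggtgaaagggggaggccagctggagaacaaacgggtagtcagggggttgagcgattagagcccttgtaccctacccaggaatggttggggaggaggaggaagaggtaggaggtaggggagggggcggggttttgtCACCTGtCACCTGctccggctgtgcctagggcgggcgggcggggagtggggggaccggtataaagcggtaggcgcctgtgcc
CEACAM6: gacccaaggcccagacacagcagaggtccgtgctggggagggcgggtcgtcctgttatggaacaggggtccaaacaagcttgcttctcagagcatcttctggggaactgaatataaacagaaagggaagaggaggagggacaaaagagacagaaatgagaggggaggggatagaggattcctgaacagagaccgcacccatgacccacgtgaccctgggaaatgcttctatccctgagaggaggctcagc
MUC1 held 2 matches, whose first bases lie at -82 and -75 from the start. The other MUC1 window holds the same 2. The windows of CEACAM6, BCAM and LYPD3 held 0, and 1 of 3 windows of CD24 held 1. EPCAM, PSCA and LY6D have no entry. Of 35116 promoter windows in the table, 6143 (17.5%) held at least 1 match. A match describes the letters only, and no binding was measured.

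In the first set, EPCAM, MUC1, BCAM, CEACAM6 and PSCA fell with TGFbeta1, LY6D did not pass the test, and LYPD3 was near its control level. The falls ranged from a level of 48.4% of control for EPCAM to 0.484% for PSCA. None of the 7 genes passed the test in the second set. A gene was called at a Benjamini-Hochberg adjusted p under 0.05 in limma on log2(FPKM + 1), over all genes with a mean of at least 1 FPKM. In a bulk library, fewer cells with a transcript and less of it per cell cannot be told apart. All 7 genes reached the minimum in both sets, but CEACAM6 and BCAM, under 1 FPKM with TGFbeta1 in the first set, reached it there through the controls.

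**Figure D1:**
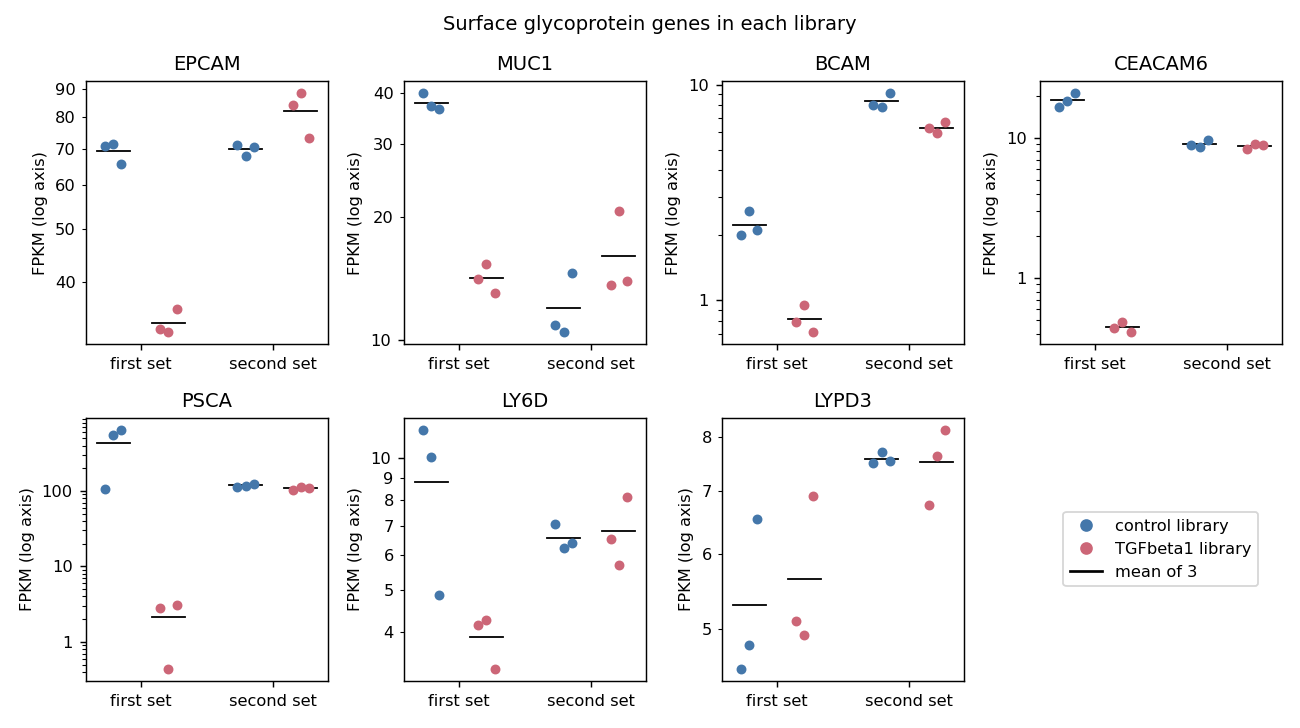
FPKM (log axis, a separate scale for each gene) of the 7 measured genes in each library, with controls in blue, TGFbeta1 in red and a line at the mean of 3. In the first set the red points lie below all blue points for every gene but LYPD3, while in the second set the groups of MUC1, CEACAM6, LY6D and LYPD3 overlap.

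Among the membrane-spanning members, EPCAM (ENSG00000119888.10_1, hg19 chromosome 2, 47596287 to 47614173) was at 71.0, 71.4 and 65.7 FPKM in the first set's controls, against 32.7, 32.3 and 35.6 with TGFbeta1. The groups did not overlap, and each was tight. The log2 change was -1.03 (SE 0.07, adjusted p = 0.000638). The second set's controls were at nearly the same level, 71.1, 67.9 and 70.5 FPKM, and the TGFbeta1 libraries at 84.1, 88.6 and 73.4. Every TGFbeta1 library lay above every control there, but the log2 change of 0.23 (95% interval 0.03 to 0.42 before adjustment) did not pass the test (adjusted p = 0.386).

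MUC1 (ENSG00000185499.16_2, chromosome 1, 155158300 to 155162706) was at 40.0, 37.2 and 36.5 FPKM in the first set's controls, against 14.1, 15.4 and 13.1 with TGFbeta1. This is a fall to 37.4% of control with no overlap (log2 change -1.36, SE 0.08, adjusted p = 0.000448). The second set's controls were at 10.9, 10.5 and 14.6 FPKM and the TGFbeta1 libraries at 13.6, 20.6 and 14.0. The groups overlapped, since control 6 exceeded TGFbeta1 4 and 6 (log2 change 0.39, 95% interval -0.10 to 0.87, adjusted p = 0.535).

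BCAM (ENSG00000187244.10_1, chromosome 19, 45312316 to 45324677) was low in the first set, at 1.999, 2.61 and 2.11 FPKM in the controls, and under TGFbeta1 lower still, at 0.793, 0.952 and 0.712. The log2 change was -0.83 (SE 0.11, adjusted p = 0.0062), a size that the added 1 FPKM holds down. BCAM in the second set was at 8.04, 7.91 and 9.14 FPKM in the controls, against 6.27, 5.98 and 6.70 with TGFbeta1. Again no TGFbeta1 library reached a control, but the log2 change of -0.36 (SE 0.08) did not pass (adjusted p = 0.237). In a fit over all 12 libraries with a term for the set, BCAM was the 1 member called (log2 change -0.59, adjusted p = 0.0345). This fit takes the change to be the same in both sets, so a difference between the sets adds to its error. The SE was 0.10 for BCAM, 0.557 for CEACAM6 and 1.09 for PSCA. A missing call there does not show that a member was unchanged. That fit called 0.511% of 10571 genes, and 0.199% lower. The BCAM call was lost without any 1 of 9 libraries (every one except controls 4 and 5 and TGFbeta1 6; adjusted p of 0.0542 to 0.108) and with a pseudocount of 0.1 (adjusted p = 0.0753) or with the replicate number as a block (adjusted p = 0.258).

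Among the GPI-anchored members, CEACAM6 (ENSG00000086548.8_2, chromosome 19, 42259329 to 42276113) had the smallest p in the first set. It was at 16.7, 18.3 and 20.9 FPKM in the controls, against 0.442, 0.486 and 0.410 with TGFbeta1. The control mean was 41.7-fold the TGFbeta1 mean, and on the log2(FPKM + 1) scale the change was -3.76 (SE 0.10, adjusted p = 5.4e-05). With a pseudocount of 0.1 it was -5.10. All 6 libraries of the second set lay within 8.32 to 9.67 FPKM whatever the group, with a log2 change of -0.05 (95% interval -0.23 to 0.13, adjusted p = 0.843). CEACAM genes are near-identical in stretches, so reads assigned to CEACAM6 and its relatives are uncertain to that extent.

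PSCA (ENSG00000167653.4_1, chromosome 8, 143761874 to 143764142) had the largest log2 change of the 7 genes and the widest spread. In the first set the controls were at 105, 550.5 and 649.9 FPKM and the TGFbeta1 libraries at 2.78, 0.437 and 3.10. Control 1 lay far below the other controls, yet still above every TGFbeta1 library. The log2 change was -6.90 (SE 0.81, adjusted p = 0.0037), and it was -6.42 to -7.73 with any 1 library left out, with the call kept each time. PSCA in the second set was at 114, 117 and 125 FPKM in the controls, against 103, 113 and 109 with TGFbeta1. The TGFbeta1 libraries were all lower by a small margin (log2 change -0.13, 95% interval -0.28 to 0.02, adjusted p = 0.490).

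LY6D (ENSG00000167656.4_1, chromosome 8, 143866296 to 143868008) was at 11.6, 10.02 and 4.87 FPKM in the first set's controls, against 4.15, 4.27 and 3.30 with TGFbeta1. Control 3 was the low one, only just above the TGFbeta1 libraries, and the log2 change of -0.93 (SE 0.30) had an adjusted p of 0.0845. Without control 3 the change was -1.27 and passed (adjusted p = 0.00719), while no other library's removal gave a call. LY6D in the second set lay between 5.70 and 8.16 FPKM in all 6 libraries (log2 change 0.03, 95% interval -0.29 to 0.35, adjusted p = 0.951).

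LYPD3 (ENSG00000124466.8_1, chromosome 19, 43964939 to 43969812) was at 4.53, 4.81 and 6.55 FPKM in the first set's controls, against 5.10, 4.93 and 6.93 with TGFbeta1, with the groups interleaved. Its log2 change was 0.08, with a 95% interval of -0.35 to 0.51 (adjusted p = 0.782). Its second-set levels were 7.51, 7.70 and 7.55 FPKM in the controls, against 6.76, 7.64 and 8.14 with TGFbeta1 (log2 change -0.02, 95% interval -0.22 to 0.19, adjusted p = 0.967). LYPD3 thus had intervals that span 0 in both sets.

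**Figure D2:**
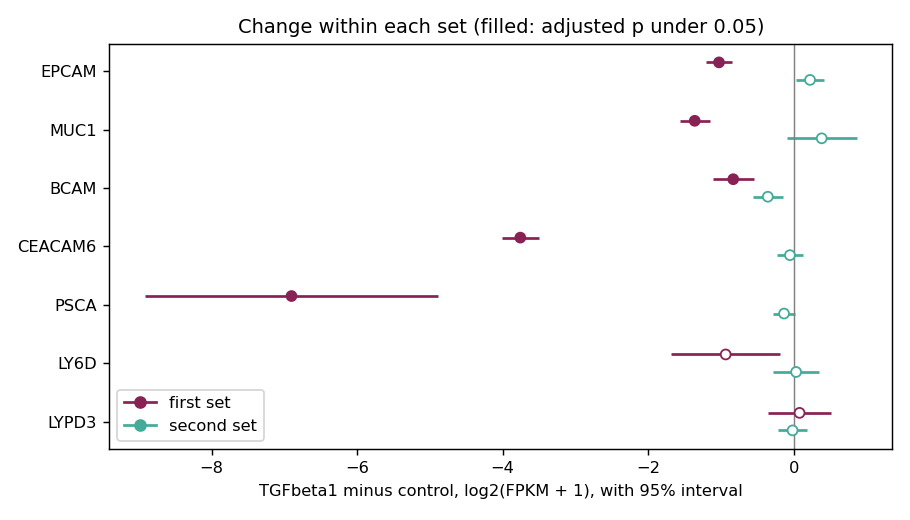
Log2 change (TGFbeta1 minus control, log2(FPKM + 1)) of each gene with its 95% interval in the first set (purple) and the second set (green). Filled points, which passed at an adjusted p under 0.05, are the 5 first-set falls from -0.83 (BCAM) to -6.90 (PSCA), and all second-set points are open.

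Of the 7 genes tested in the first set, 5 were called, all of them lower, where 20.9% of 10454 genes were called and 11.9% were called lower. The members were chosen with earlier results of these data known, and CEACAM6 and BCAM reached the minimum through their controls. The shares and medians given here and for the interaction are therefore a description and no test of the set. Rescaling each library to an equal sum of FPKM called 1164 genes higher and 855 lower, against 941 and 1245 without it, and left the 5 member calls as they were. The median log2 change was -1.03 over the members and -0.05 over all genes tested. Groups did not overlap for 6 of the 7 (43.3% of all genes tested, in either direction), all lower with TGFbeta1 (25.1%). Of the 7 genes in the second set 0 were called, by limma, against 0.321% of 10579 genes, with EPCAM and BCAM at an unadjusted p under 0.05 (0.0297 and 0.00593), as were 11.2% of all genes. There the members' median was -0.02 and that of all genes -0.00031. Groups did not overlap for 3 of 7 (19.3% of all genes), with PSCA and BCAM lower with TGFbeta1 (9.62%) and EPCAM higher (9.71%).

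The difference between the sets was tested as the interaction of set and agent. It was called for CEACAM6 (second minus first set 3.71, SE 0.13, adjusted p = 1.2e-07), EPCAM (1.25, SE 0.11, adjusted p = 5.3e-05), PSCA (6.77, SE 0.87, adjusted p = 0.00055) and MUC1 (1.75, SE 0.23, adjusted p = 0.000656). These are 4 of 7 members, all higher, where 13.6% of 10571 genes were called and 7.54% were called higher. BCAM was close to the threshold (0.48, SE 0.14, adjusted p = 0.0544), LY6D had 0.97 (SE 0.35, adjusted p = 0.102) and LYPD3 -0.10 (SE 0.20, adjusted p = 0.815). BCAM passed with a pseudocount of 0.1 (adjusted p = 0.0111), without the variance trend (0.0459), with only shared transcripts summed (0.0239) and without control 6 (0.0486). LY6D passed without control 3 (adjusted p = 0.00259).

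The order of the levels, which FPKM allows since it is per length, also differed by group. In the first set's controls it ran PSCA, EPCAM, MUC1, CEACAM6, LY6D, LYPD3 and BCAM, and of these neighbours only LY6D and LYPD3 had overlapping ranges. With TGFbeta1 it ran EPCAM, MUC1, LYPD3, LY6D, PSCA, BCAM and CEACAM6, with PSCA and BCAM overlapping. PSCA, the most abundant of the 7 in each control, was thus below LYPD3 in each TGFbeta1 library of that set. Among the second set's controls the order was PSCA, EPCAM, MUC1, CEACAM6, BCAM, LYPD3 and LY6D, with CEACAM6 and BCAM overlapping. With TGFbeta1 in that set it was PSCA, EPCAM, MUC1, CEACAM6, LYPD3, LY6D and BCAM, where LYPD3 overlapped LY6D and LY6D overlapped BCAM.

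Single transcripts were compared because a sum can hide an exchange between them. MUC1 has 12 listed transcripts in the first set, of which 10 had a lower mean with TGFbeta1 and 4 were listed at 0 in all 3 TGFbeta1 libraries. Most of its FPKM in that set came from a short transcript, ENST00000612778 (1836 nt in GENCODE 29), and a long one, ENST00000611571 (4170 nt). The short transcript was at 27.0, 23.9 and 20.7 FPKM in the first set's controls, against 7.23, 9.13 and 4.99 with TGFbeta1 (log2 change -1.64, adjusted p = 0.0171 over 18113 transcripts, 5.54% of which were called). The long transcript was at 9.05, 5.32 and 8.48 FPKM and at 3.30, 3.60 and 7.61, and did not pass (log2 change -0.61, adjusted p = 0.381). Whether the changes of these 2 transcripts differ was not tested.

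**Figure D3:**
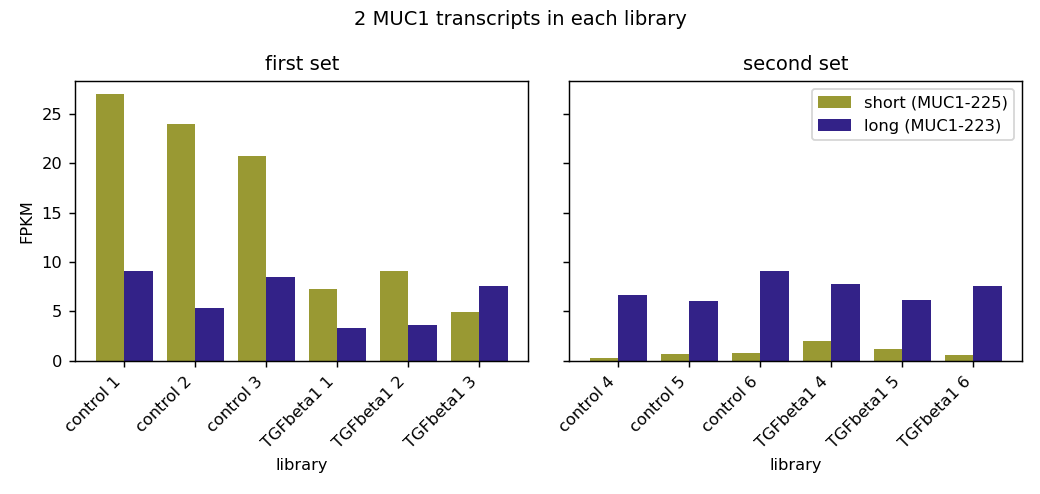
FPKM of the short (1836 nt) and the long (4170 nt) MUC1 transcript in each library of the first and second sets. The short transcript leads in 5 of the 6 first-set libraries and is the lower of the pair in all 6 second-set libraries, while the long one stays between 3.30 and 9.05 FPKM throughout.

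The short transcript made up 70.9 to 81.8% of the pair in the first set's controls and 39.6 to 71.7% with TGFbeta1. Its share in the second set was 3.81 to 9.99% in the controls and 6.96 to 20.6% with TGFbeta1. The second set's short transcript was at 0.262, 0.676 and 0.809 FPKM in the controls, and its long one at 6.62, 6.09 and 9.05, close to the level in the first set. A further transcript, ENST00000485118, made up 29.2% of MUC1 in the second set and 1.88% in the first. It was at 2.15, 1.95 and 2.81 FPKM in the second set's controls, and TGFbeta1 libraries held 1.90, 10.8 and 4.95 (log2 change 0.84, adjusted p = 0.824). The high value is that of TGFbeta1 5, the library with the highest MUC1 sum of that set. The higher MUC1 sum of the first set's controls (37.9 ± 1.84 FPKM against 11.98 ± 2.26, SD, n = 3, in tables that appear normalised separately) was therefore mostly that of the short transcript. MUC1 holds a repeat region, and assignment of reads between its transcripts is uncertain.

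PSCA has 2 listed transcripts. The main one, ENST00000301258, was at 78.5, 542 and 641 FPKM in the first set's controls, against 2.78, 0.437 and 3.10 with TGFbeta1 (log2 change -6.75, adjusted p = 0.0166). The minor one, ENST00000513264, was at 26.7, 8.41 and 8.93 in the controls, against 0, 0 and 0.000191 with TGFbeta1 (adjusted p = 0.0106). Control 1, lowest in the main transcript, was thus highest in the minor one. EPCAM took 99.9% of its first-set FPKM from ENST00000263735, and CEACAM6, LY6D and LYPD3 have 1 listed transcript each.

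Related surface genes were taken from lists of families and partners of the members. In the LY6/uPAR family outside the members, 2 of 6 tested genes rose and 3 fell in the first set. This was 83.3% called, against 20.9% of all genes tested, with a median log2 change of -0.69. PLAUR, the urokinase receptor, rose from 9.51 ± 1.49 to 34.9 ± 0.533 FPKM (adjusted p = 0.000553), and CD59, an inhibitor of complement lysis, from 59.97 ± 4.07 to 107 ± 2.45 (adjusted p = 0.00114; SD, n = 3). SLURP1, a secreted member, was at 5.80, 4.11 and 5.69 FPKM in the controls and was listed at 0 in all 3 TGFbeta1 libraries (adjusted p = 0.000251). The other falls, chosen after their values were seen, were LY6E (log2 change -0.87) and LYNX1 (-1.35). The family of PSCA, LY6D and LYPD3 thus had genes called in both directions.

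Of the CEACAM genes outside the members, CEACAM1 was the 1 tested in the first set. It fell from 2.06 ± 0.114 to 0.465 ± 0.373 FPKM (SD, n = 3), a log2 change of -1.10 (adjusted p = 0.0195). The call was lost without any 1 control (adjusted p of 0.0567 to 0.0607) and with a pseudocount of 0.1 (0.0807). Of 4 tested membrane mucins and sialomucins, 2 fell and 0 rose (50% called, against 20.9% of all genes tested). MUC16, the mucin that carries the CA125 antigen, was at 2.13, 2.27 and 2.89 FPKM in the controls, against 0.0331, 0.0347 and 0.0258 with TGFbeta1 (adjusted p = 0.000568). MUC21 was at 2.55, 2.68 and 4.19 FPKM in the controls, against 0, 0 and 0.0172 with TGFbeta1 (adjusted p = 0.00115). MUC16, MUC21, CEACAM1 and SLURP1 all passed the filter through their controls, so their number is not evidence beyond each gene.

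EPCAM's partners and processing enzymes had 1 of 17 tested genes higher and 4 lower in the first set, with a median of -0.04. Of the 17, 29.4% were called, against 20.9% of all genes tested. CLDN7, a claudin that binds EPCAM, fell from 108 ± 7.73 to 38.04 ± 5.21 FPKM (adjusted p = 0.000923). SPINT1, an inhibitor of the membrane protease ST14, fell from 41.7 ± 2.45 to 27.1 ± 1.25 FPKM (SD, n = 3), a log2 change of -0.60 (adjusted p = 0.00425). The other falls, chosen after their values were seen, were the claudin CLDN1 and ST14 itself, which cleaves EPCAM (log2 changes -2.28 and -1.21). The gene that rose was CD44, the hyaluronan receptor, from 110.1 ± 1.05 to 181 ± 7.58 FPKM (log2 change 0.71, adjusted p = 0.00089). None of the secretase subunits and ADAM sheddases of the list passed.

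**Figure D4:**
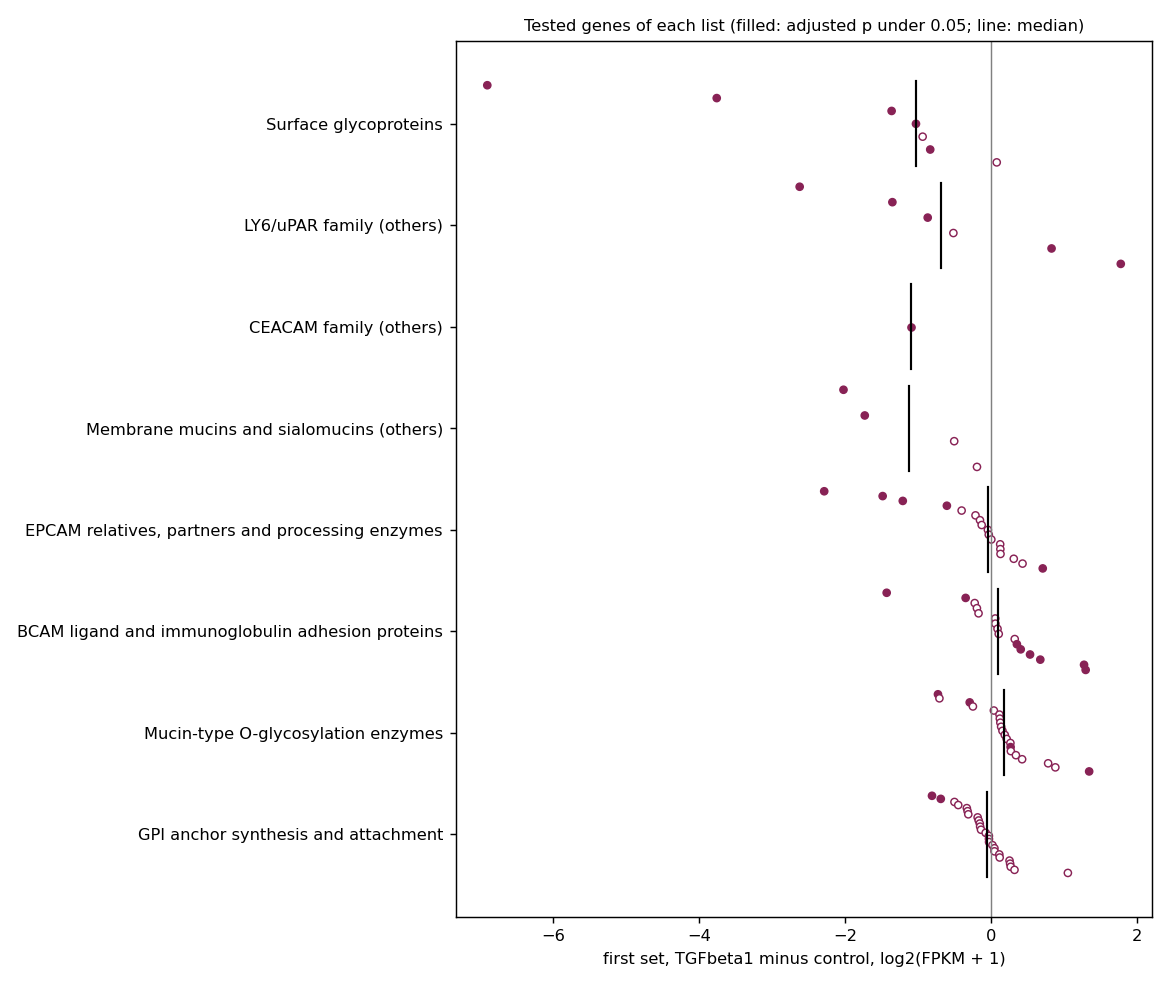
First-set log2 change (TGFbeta1 minus control) of every tested gene in the surface glycoprotein set and 7 related lists, filled where the adjusted p was under 0.05, with a line at the median of each list. Medians lie at -1.03 for the surface glycoproteins, -1.11 for membrane mucins, -1.10 for the 1 CEACAM gene and -0.69 for the LY6/uPAR family. They lie between -0.05 and 0.18 for EPCAM partners, immunoglobulin adhesion proteins, O-glycosylation enzymes and GPI anchor genes. CEACAM6, BCAM, MUC16, MUC21, CEACAM1 and SLURP1 reached the minimum mean of 1 FPKM through their controls. The medians of their lists are therefore not evidence beyond each gene.

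Among BCAM's ligand chain and other immunoglobulin adhesion proteins, 6 of 16 rose and 2 fell, with a median of 0.10. Of the 16, 50% were called, against 20.9% of all genes tested. The laminin chain LAMA5 was at 25.4 ± 0.906 and 26.5 ± 1.47 FPKM (adjusted p = 0.594). ICAM1, a leukocyte adhesion receptor, rose from 1.46 ± 0.175 to 5.05 ± 0.286 FPKM (adjusted p = 0.000711) and NECTIN3 from 1.91 ± 0.326 to 3.64 ± 0.0718 (adjusted p = 0.00993). CXADR, a tight junction adhesion protein, fell from 4.92 ± 0.269 to 1.23 ± 0.424 (SD, n = 3; adjusted p = 0.00329).

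Further lists hold the enzymes that add sugars and anchors to such proteins. Of 20 tested mucin-type O-glycosylation enzymes 2 rose and 2 fell in the first set (20% called, close to the 20.9% of all genes), with a median of 0.18. They were GALNT2, an initiating transferase, from 19.1 ± 1.93 to 52.6 ± 18.8 FPKM (adjusted p = 0.0282), GALNT11 (log2 change 0.27, adjusted p = 0.0440), the sialyltransferase ST6GALNAC4 (-0.72, adjusted p = 0.0321) and, chosen after its value was seen, GALNT18 (-0.29, adjusted p = 0.0465). GALNT2, GALNT11 and ST6GALNAC4 each kept the call in only 1 of the 6 fits without 1 library. Of 26 tested genes of GPI anchor synthesis 0 rose and 2 fell (7.69% called, against 20.9% of all genes). They were DPM2, a subunit of dolichol-phosphate mannose synthase, from 9.90 ± 0.747 to 5.24 ± 0.563 FPKM (SD, n = 3; adjusted p = 0.0045), and PIGF (log2 change -0.69, adjusted p = 0.0256), whose call held in 2 of those 6 fits. Limma called none of the tested genes in any of these 7 lists in the second set.

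The genes whose profile was most like that of each member were found by Pearson correlation of log2(FPKM + 1), centred within each set, over the 12 libraries. They are a description, since the libraries share the contrast between groups. CEACAM6 was most like the keratin gene KRT4 (r = 0.999) and the kallikrein gene KLK10 (0.996). EPCAM was most like SECTM1 (0.988) and ANKRD2 (0.985), and MUC1 like CRYBG2 (0.981) and CDC42BPG (0.974). PSCA was most like TRIM29 (0.989) and SLC25A33 (0.980), and BCAM like FLVCR2 (0.975) and the surface glycoprotein gene MSLN, mesothelin (0.973). LY6D was most like ADM2 (0.977) and SLC6A9 (0.967), and LYPD3 like C16orf74 (0.951) and TSPYL1 (0.916). TSPYL1 was listed at 0 in 4 first-set libraries and at 30.4 and 29.9 FPKM in control 3 and TGFbeta1 3. Its likeness therefore rests on those libraries. C16orf74 was also highest there (27.9 and 31.5 FPKM), with the other first-set libraries at most at 14.4. So was LYPD3 itself (6.55 and 6.93 FPKM), whose groups were interleaved in that set. LY6D, ADM2 and SLC6A9 were each lowest of their first-set group in control 3 and in TGFbeta1 3. The likeness of these genes without those libraries was not tested.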

How the data were processed

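RNA was measured in 12 libraries. The authors deposited FPKM per protein-coding transcript in 2 tables; the first set's unit is inferred from its values. The second set's table also holds, as the authors deposited them, log2 group means and log2 changes, a linear fold change (a ratio), and p-values and q-values. Per the submitters' processing notes, the tools included HISAT2 2.0.4 and StringTie 1.2.3, with cutadapt and FastQC, and the build hg19. The sources used here give no strandedness, annotation or settings. Listed transcripts had a mean FPKM of at least 0.025 (first set) or 0.25 (second). Within each set no library was identical to another. No counts were used, so the number of libraries limits the precision.

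Transcripts were summed per symbol, after 196 symbols of the first set were renamed through shared transcript identifiers (27453, matched without version), and tested with limma 3.58.1 (R 4.3.3; trend, Benjamini-Hochberg, two-sided) within each set, over both with a term for the set, and for the interaction. Tables and figures used Python 3.11.15, pandas 2.3.3, numpy 2.4.6 and matplotlib 3.10.9. Log2(FPKM + 1) understates changes of low genes. On simulated data for the first set (10454 genes), 68 of 100 genes changed by 1 on that scale were recovered. For a change of 2 it was 85 of 100, with 10 false calls in all. The changed genes were drawn from those with a control mean over 2 on that scale. Lower genes, BCAM among them, are not covered by these rates. In the first set itself 20.9% of genes were called, a far larger share than was changed in the simulation. The Benjamini-Hochberg cut-off depends on that share, so the rates need not hold for the data. Alternatives were a pseudocount of 0.1, no filter, median-of-ratios or equal-sum scaling, no trend, leaving out each library, the replicate number as a block, and transcripts in both sets.

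The members and lists were chosen with earlier results of these data known. Named were all members, CD44, up to 3 called genes with the smallest p per list in the first set (2 in the second), and the 2 genes most like each member. One further result is not reported here.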

Additional observations from a re-analysis of the deposited data

Results flagged for a closer look

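The change with TGFbeta1 differed between the 2 sets, by the limma interaction of set and agent, for 4 of the 7 measured surface glycoprotein genes. The change in the second set exceeded that in the first by 6.77 for PSCA, 3.71 for CEACAM6, 1.75 for MUC1 and 1.25 for EPCAM on the log2(FPKM + 1) scale. For PSCA the first set's controls themselves spread from 105 to 649.9 FPKM, against 114 to 125 in the second set. The difference held for these 4 genes without any 1 of the 12 libraries. SMAD7 also differed between the sets (second minus first -1.42, adjusted p = 0.000246). The set cannot be told apart from whatever else differed between the libraries of the 2 sets, which the labels do not state.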

How the results depend on the processing

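In the first set EPCAM, MUC1, BCAM, CEACAM6 and PSCA kept direction and call in all 7 other settings and without any 1 library. The numbers of members called lower were 5 to 6, and higher 0 to 0, without 1 library. In the second set no member was called in any setting. Over all genes of the first set, leaving out 1 library left 615 to 935 called higher and 722 to 1095 lower. In the second set it left 0 to 13 and 0 to 10, over both sets 8 to 46 and 2 to 37 (members lower 0 to 1), and for the interaction 651 to 822 and 543 to 680 (members higher 4 to 5).

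Same-numbered libraries deviated together only weakly (r of 0.00746 to 0.0457, none over 0.1). Of the 6 controls 5 correlated best with the TGFbeta1 library of their own number, a hint of pairing from the data that the labels do not state, so the numbers were not taken as pairs. With the replicate block, the first set had 552 genes higher and 659 lower, the second 0 and 0, and both sets together 0 and 0, where 0 members stayed called. No other member call changed under the block. An equal sum gave 10 and 7 calls in the second set and 522 higher for the interaction, where calls were 55.5% higher without it and 40.3% with it. No trend gave 11 and 9 in the second set, and a pseudocount of 0.1 gave 21 and 9 over both sets with 0 members lower. The cause of these shifts was not tested.

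Without 1 library, directions turned only for values near 0. LYPD3 ranged from -0.052 (TGFbeta1 3) to 0.22 in the first set, from -0.068 to 0.050 (TGFbeta1 4) in the second, from -0.032 (TGFbeta1 3) to 0.089 over both sets and from -0.23 to 0.037 (TGFbeta1 3) for the interaction. It also turned without control 1 in the first set (-0.0053) and over both sets (-0.011). LY6D ranged from -0.088 (TGFbeta1 6) to 0.14 in the second set.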

Other observations

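Of 17 tested EPCAM partners and processing enzymes, 6 had every second-set TGFbeta1 library above every control (9.71% of all genes did) and 0 had every one below. These 6 were CLDN7, CLDN1, ST14 and SPINT1, which were called lower in the first set, and SPINT2 and ADAM17, which were not. The sign of the log2 change differed between the sets for 12 of the 17 and was the same for 5, ADAM17, BACE2, CD9, NCSTN and PSEN2. CLDN7 was at 51.0, 47.2 and 53.8 FPKM in those controls, against 71.4, 82.5 and 73.4 under TGFbeta1 (log2 change 0.57, adjusted p = 0.0901). None of the 4 genes called lower in the first set passed in the second set (adjusted p of 0.0901 to 0.303), and the interaction passed for each of them (adjusted p of 1.2e-05 to 0.0109). EPCAM showed the same signs. These genes were chosen after their values were seen.

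Control levels of the members, side by side in tables that appear normalised separately, were, for EPCAM, 69.3 ± 3.16 FPKM (first set) and 69.8 ± 1.67 (second). They were 18.6 ± 2.15 and 9.09 ± 0.534 for CEACAM6, 435 ± 290.1 and 119 ± 5.55 for PSCA, and 2.24 ± 0.323 and 8.36 ± 0.673 for BCAM. LY6D was at 8.83 ± 3.51 and 6.56 ± 0.440 and LYPD3 at 5.29 ± 1.09 and 7.59 ± 0.104 (SD, n = 3 each).

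In the authors' deposited table for the second set, the lowest q-value of the 14 member transcripts was 0.754, for EPCAM and the main BCAM transcript.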
